A study of Oryza sativa with 36 samples.

Results

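A set of 148 genes, out of 17905 genes with a probe set of their own on the array, had low or steady transcript levels in the rice embryo through the first 12 h of imbibition and higher levels at 24 h. The members were chosen from the measured embryo levels. Each gene was read from its brightest probe set, and a gene was eligible when none of its embryo means from 4 to 12 h was more than 1 log2 unit away from its 0 h mean and its embryo 24 h mean was at least 6. Of 4331 eligible genes, the 150 with the highest score were taken, the score being the embryo 24 h mean minus the highest embryo mean from 0 to 12 h. The expansin genes EXP1 (score 4.42) and EXPB17 (score 3.51) were then left out, because cyclin, CDK, MCM, expansin and tubulin genes were not to be included, and this left 148. Genes known by an identifier alone could not be recognised as members of those families. The embryo levels from 0 to 12 h and at 24 h are therefore a description of how the genes were chosen and carry no test here.

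The groups were endosperm and embryo of rice (Oryza sativa; some labels name the cultivar Nipponbare) imbibed for 0, 4, 8, 12, 16 or 24 h, with 3 arrays per tissue and time and 36 arrays in all. Imbibition for all groups was in sterile water with bubbled air at 30 °C in darkness, and 0 h is its start. Arrays were Affymetrix rice arrays and the values are log2 levels made with GCRMA. Each array has a harvest day, and the arrays of a group mostly came from different days. Embryo arrays came from 5 harvest days and endosperm arrays from 5, and only some of these days held both tissues. Tissue and harvest day therefore cannot be fully told apart. Whether replicates came from separate batches of seed is not in the labels, and p-values measure only the spread between these arrays, which may be technical. In bulk tissue, fewer cells of a type and less RNA per cell cannot be told apart.

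A germinating cereal embryo restarts respiration and protein synthesis from stored transcripts, and only later do its root and shoot begin to elongate and divide. Late in this phase seedlings in darkness prepare plastids for light, remodel cell walls, and use hormones such as auxin and brassinosteroids to control growth. The starchy endosperm is dead tissue filled with reserves, and the surrounding aleurone is a living layer that secretes hydrolases.

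Starchy endosperm markers, of which 9 of 10 were measured, averaged 10.88 to 11.18 in the 24 h endosperm arrays and 3.59 to 4.30 in the 24 h embryo arrays. Embryo axis and meristem markers, 5 of 6 measured, averaged 4.08 to 4.96 in the 24 h endosperm arrays and 7.87 to 7.97 in the 24 h embryo arrays. GLUB4 stayed near 2.6 in endosperm and OSH43 near 2.9 in the later embryo, low signal in their own tissue. Aleurone and scutellum markers, 6 of 6 measured, averaged 11.10 to 11.32 in the 24 h endosperm arrays and 8.40 to 9.22 in the 24 h embryo arrays. The difference between 3′ and 5′ control probe sets for actin, GAPDH and cyclophilin, a measure of RNA integrity, was 3.23 to 3.498 in 24 h endosperm and 2.10 to 2.59 in 0 h endosperm, and 1.43 to 1.57 in 24 h embryo and 1.37 to 2.14 in 0 h embryo. Its part in the results was not tested. Whether the 2 tissues were normalised together is not stated in the processing notes. The 75th percentiles were 4.12 to 4.53 in endosperm arrays and 5.21 to 5.77 in embryo arrays, while array medians were 2.72 to 2.81 and 2.80 to 2.93. The source of this difference was not tested, and tissue differences are given under other scalings too.

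Arrays numbered replicate 1 stood apart in these genes. At 12 h the median level of the 148 genes was 4.35 in embryo replicate 1, 3.40 in replicate 4 and 3.18 in replicate 5. Replicate 1 was the highest of the 3 embryo arrays at 12 h for 118 members (79.7%), against 34.8% of all genes. Between 8 and 12 h, 72 members differed by at least 1 in replicate 1, 17 in replicate 4 and 1 in replicate 5. The seed maturation markers, 4 of 5 measured, averaged 10.61, 10.80 and 11.98 in those 12 h arrays, so the array lowest in members was the highest in maturation transcripts. The starchy endosperm markers averaged 4.23, 3.91 and 5.60 in the same arrays. The members were thus further up in the 12 h embryo array of replicate 1 than in the others, and 12 h means hide this. At 16 h the medians were 5.41, 4.79 and 4.98, with replicate 1 again the highest. The part of seed maturation and endosperm transcripts in these differences was not tested.

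In endosperm the 24 h array numbered 1 also stood apart. Its member median was 3.35, against 2.94 and 3.02 in the other arrays, and 5 members lay at least 1 above both of them, which held for 0.290% of all genes. BURP2 read 5.11 there and 2.56 in each of the other 24 h endosperm arrays. The embryo axis markers averaged 4.96 in that array and 4.08 and 4.48 in the others, and their part in the member levels was not tested.

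**Figure D1:**
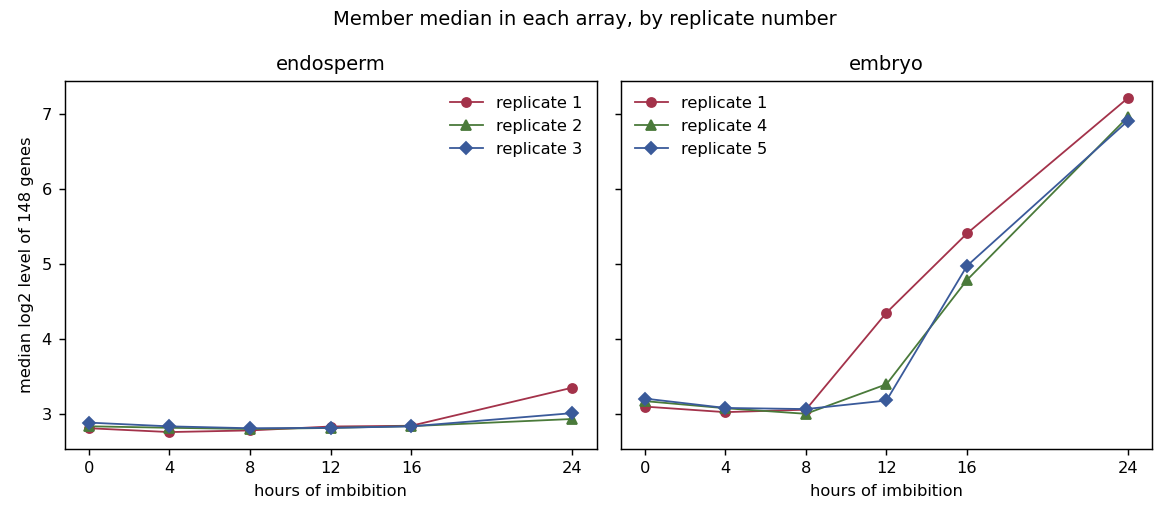
Median log2 level of the 148 genes in each array against hours of imbibition, endosperm left and embryo right, with a line for each replicate number. The embryo replicate 1 array lies above the others at 12 h (4.35 against 3.40 and 3.18) and the endosperm replicate 1 array lies above the others at 24 h (3.35 against 2.94 and 3.02).

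Leaving out a replicate changed which genes the rule picks. Without embryo replicate 1, 107 of the 148 genes were picked again, without replicate 4, 127, and without replicate 5, 101. With the rule set on 2 replicates, the score in the left-out array was at least 1 for 140 of 145 picked genes when replicate 1 was left out, 137 of 148 for replicate 4 and 119 of 148 for replicate 5, against 5.20%, 5.07% and 7.79% of all genes. The median score in the left-out arrays was 2.69, 2.82 and 2.48, and over all genes it was -0.29, -0.25 and -0.24. The lowest scores of picked genes there were 0.38, -0.18 and -1.55. Probe sets were still the brightest over all arrays, left-out ones included. All genes were not limited to the eligible ones, so their shares are no matched comparison. ILL3, KIN10A, KIN10B, KIN14E and Cht1 were no longer picked when either replicate 4 or replicate 5 was left out, and CKS1 when replicate 1 or replicate 4 was. Also lost were AT5, KIN14N, MT2B, PORB, VIT2 and rcs1 without replicate 1, and MT1B without replicate 4. Without replicate 5, AOS4, CPS2, CenH3 and LTI6A were lost as well.

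The scores of the 148 genes had a median of 3.12 (range 1.21 to 6.67), and 37 genes scored at least 4. In 64 members every embryo mean from 0 to 12 h was below 3.5, a level taken here as low signal. GCRMA compresses differences in that range, so steps that start there are understated. The median of the members' embryo means was 3.17 at the start, 3.63 at 12 h, 5.09 at 16 h and 7.03 at 24 h. In endosperm, 96 members had all 6 means below 3.5, and the median was 2.87 at 0 h and 3.12 at 24 h. Just inside the limit were LOC4351776 (score 1.27), LOC4325263 (1.25) and LOC4343680 (1.21), and just outside were LOC4328916 (1.18), LOC4333848 (1.17) and LOC4325904 (1.16), so the limit marks no gap.

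**Figure D2:**
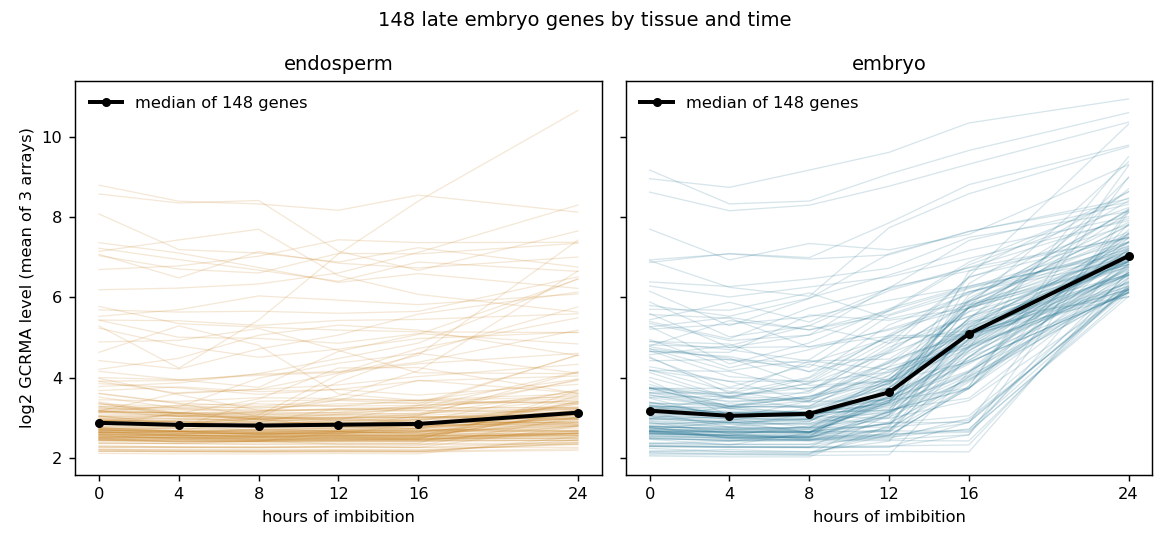
Mean log2 level of each of the 148 genes against hours of imbibition, endosperm left and embryo right, with the median over the genes in black. The endosperm median stays between 2 and 4. The embryo median climbs after 12 h (3.63), through 5.09 at 16 h, and reaches 7.03 at 24 h.

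Only 28 members carry a name in the gene tables used, and 120 are known by an identifier, to which no role is given. The highest score was that of BURP2, which encodes a protein with a BURP domain, a plant-specific domain of secreted proteins. Its embryo levels were 2.84, 2.76 and 2.92 at 12 h, 5.14, 4.52 and 4.58 at 16 h, and 10.03, 9.21 and 9.28 at 24 h in replicates 1, 4 and 5. The 3 times did not overlap. A second probe set of BURP2 had an embryo 24 h minus 12 h difference of 3.95, against 6.67 for the brightest. None of the other 6 BURP-domain genes measured was picked. BURP3, for example, had an embryo mean of 7.63 at 0 h, 9.14 at 12 h and 9.94 at 24 h.

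The germin-like proteins GER2 and GER1, cell wall glycoproteins of the cupin superfamily, moved late. GER2 read 2.73, 2.61 and 2.61 at 12 h, 4.82, 2.83 and 3.69 at 16 h, and 10.25, 8.09 and 9.51 at 24 h in embryo replicates 1, 4 and 5. GER1 read 3.44, 2.93 and 3.13, then 3.64, 3.20 and 4.35, then 9.08, 6.40 and 8.01 in the same order. The spread at 24 h was wide, and for each gene replicate 1 was the highest and replicate 4 the lowest. The 2 genes lie next to each other with no gene between in the gene table, and related genes can share probes. Over the 9 germin-like genes measured, GER2, GER1 and GER5 were called higher in embryo at 24 h than at 12 h (adjusted p below 0.05 in limma and a log2 difference of at least 1), as were 6.38% of all genes. Embryo calls of this kind use the arrays by which the members were chosen and are given as description. GER5 had an embryo mean of 3.72 at 12 h and 5.77 at 24 h, under the level of 6 that the rule asks for. GER4 was already at 11.70 at 12 h, and GER3, at 7.29 at 0 h, was at 2.19 at 12 h.

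Auxin and brassinosteroid genes followed different timings at 16 h. ILL3, an amidohydrolase of the family that frees auxin from its amino acid conjugates, read 5.40, 3.14 and 2.75 at 12 h, 7.19, 5.81 and 6.56 at 16 h, and 10.62, 10.07 and 10.28 at 24 h. Its 12 h arrays spread widely, replicate 1 being far above the others, while its 24 h arrays lay close together. IAA14, an Aux/IAA repressor of auxin response, read 3.34, 3.13 and 3.12 at 12 h, 3.52, 3.26 and 3.68 at 16 h, and 6.58, 6.86 and 6.08 at 24 h. Hence IAA14 was near its starting level in all 16 h arrays. Of the 26 Aux/IAA genes measured, 5 passed the embryo 24 h minus 12 h call upward, against 6.38% of all genes, and IAA14 was the single member. BHLH172, also known as BU1, is a helix-loop-helix protein that promotes cell elongation in response to brassinosteroids. It read 2.76 in each 12 h array, 3.28, 2.76 and 2.75 at 16 h, and 5.92, 6.47 and 6.22 at 24 h, so it too was at or near its starting level at 16 h.

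AOS4, an allene oxide synthase on the route to jasmonate, read 4.76, 3.77 and 3.13 at 12 h, 6.19, 4.62 and 5.55 at 16 h, and 8.71, 8.71 and 8.70 at 24 h in embryo. The 24 h arrays were almost equal although the 12 h arrays were not. Of 18 oxylipin synthesis genes measured, AOS4 and LOX1.1 passed the embryo 24 h minus 12 h call upward, against 6.38% of all genes. LOX1.1, a lipoxygenase, was no member, since its embryo mean was 4.38 at 0 h and 9.26 at 12 h.

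Plastid genes were among the members, in seeds imbibed in darkness. PORA and PORB encode protochlorophyllide oxidoreductases, which make chlorophyllide when light arrives. PORA read 3.67, 2.84 and 2.67 at 12 h, 6.26, 4.53 and 4.12 at 16 h, and 8.17, 7.58 and 7.0 at 24 h in embryo. PORB was expressed from the start, with 5.65, 5.51 and 5.62 at 0 h, 5.02, 5.27 and 5.26 at 12 h, and 7.30, 6.78 and 6.57 at 24 h. All PORB arrays at 12 h were below those at 0 h, and PORA began near low signal. The other 5 chlorophyll synthesis genes measured, among them CHLP (9.56 at 12 h and 9.99 at 24 h) and CHLG (6.76 and 7.33), did not pass the embryo 24 h minus 12 h call. ADI1, a ferredoxin that carries electrons in plastids, read 3.48, 3.19 and 3.21 at 12 h, 4.60, 3.83 and 4.02 at 16 h, and 8.67, 7.62 and 6.42 at 24 h. Of its 3 other probe sets, 2 differed by 4.56 and 4.60 between 24 and 12 h, and 1 stayed at low signal. TPT, the triose phosphate translocator of the chloroplast envelope, read 4.55, 3.96 and 3.88 at 12 h, 4.85, 4.45 and 4.97 at 16 h, and 7.32, 7.09 and 6.80 at 24 h. A second probe set of TPT stayed at low signal, with an embryo 24 h mean of 2.40 and a 24 h minus 12 h difference of -0.013. The 24 h arrays of these 4 genes lay above all 12 h arrays in every case.

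Kinesins, motor proteins that move along microtubules, formed the largest named family with 6 members. KIN10A, also called STD1, read 4.81, 2.702 and 2.65 at 12 h, 6.16, 5.49 and 5.62 at 16 h, and 7.55, 7.50 and 7.08 at 24 h in embryo. KIN10B read 5.26, 2.99 and 2.69, then 6.25, 5.73 and 5.71, then 7.56, 7.66 and 7.52. KIN14R read 3.90, 2.92 and 2.82, then 5.30, 4.68 and 4.90, then 7.05, 7.20 and 7.25. In all 3 kinesins the 12 h array of replicate 1 was well above the others and the 24 h arrays were alike. KIN14E, KIN14A and KIN14N had scores of 3.43, 2.53 and 1.41. KIN14N was expressed before the step, with 7.38, 6.73 and 6.07 at 12 h and 8.05, 8.36 and 8.01 at 24 h. Of the 34 kinesin genes measured, 16 were called higher in embryo at 24 h than at 12 h, against 6.38% of all genes. The 6 members are among the 16, but all 148 members were called so, having been chosen on these arrays. Other kinesins were already above their 0 h level at 12 h, such as KIN14C, with embryo means of 5.29 at 0 h, 7.53 at 12 h and 8.02 at 24 h.

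CenH3 and CKS1 belong to chromosome segregation and to the cell cycle. CenH3, the histone H3 variant of centromeres, read 6.07, 5.63 and 5.25 at 12 h, 6.73, 6.83 and 6.87 at 16 h, and 8.24, 8.45 and 8.03 at 24 h. CKS1, a small subunit that binds cyclin-dependent kinases, read 10.03, 9.57 and 9.26 at 12 h, 10.59, 10.13 and 10.33 at 16 h, and 10.86, 11.10 and 10.89 at 24 h. CKS1 already read 8.99, 8.99 and 8.90 at 0 h, and its score was 1.33.

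Stress and defence genes among the members began from different levels. MT1B, a metallothionein that binds metal ions, read 3.37, 3.37 and 3.28 at 12 h, 4.63, 4.15 and 3.39 at 16 h, and 7.85, 8.11 and 7.10 at 24 h in embryo. MT2B, another metallothionein, read 3.80, 3.36 and 2.76, then 4.26, 4.29 and 4.62, then 6.41, 6.002 and 5.94. The other 3 probe sets of MT2B differed by -0.03 to 0.62 between 24 and 12 h in embryo, so the probe sets disagree. CPS2, an ent-copalyl diphosphate synthase of phytoalexin synthesis, read 4.18, 3.49 and 2.95 at 12 h, 6.07, 4.78 and 5.34 at 16 h, and 5.98, 5.53 and 6.54 at 24 h. Its 16 h and 24 h arrays overlapped. Cht1, a chitinase, read 5.56, 4.96 and 4.27 at 12 h, 6.19, 4.62 and 4.71 at 16 h, and 5.93, 7.56 and 7.76 at 24 h, so that replicate 1 was the highest at 12 h and the lowest at 24 h.

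PRX74, a secreted class III peroxidase, read 3.29, 2.60 and 3.25 at 16 h and 7.05, 5.76 and 6.27 at 24 h. AT5, an acyltransferase of the BAHD family that transfers acyl groups in cell wall and phenolic metabolism, read 4.38, 3.75 and 3.76 at 16 h and 6.59, 6.17 and 5.80 at 24 h. LTI6A, a small membrane protein induced by cold, read 8.42, 7.96 and 7.20 at 12 h and 10.09, 9.77 and 9.53 at 24 h. The cysteine synthase gene rcs1 had an embryo mean of 5.40 at 0 h, 6.21 at 12 h and 7.97 at 24 h. VIT2, which loads iron into the vacuole, had 7.70 at 0 h, 7.19 at 12 h and 9.31 at 24 h. In each of these 5 genes all 24 h embryo arrays lay above all embryo arrays from 0 to 16 h.

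**Figure D3:**
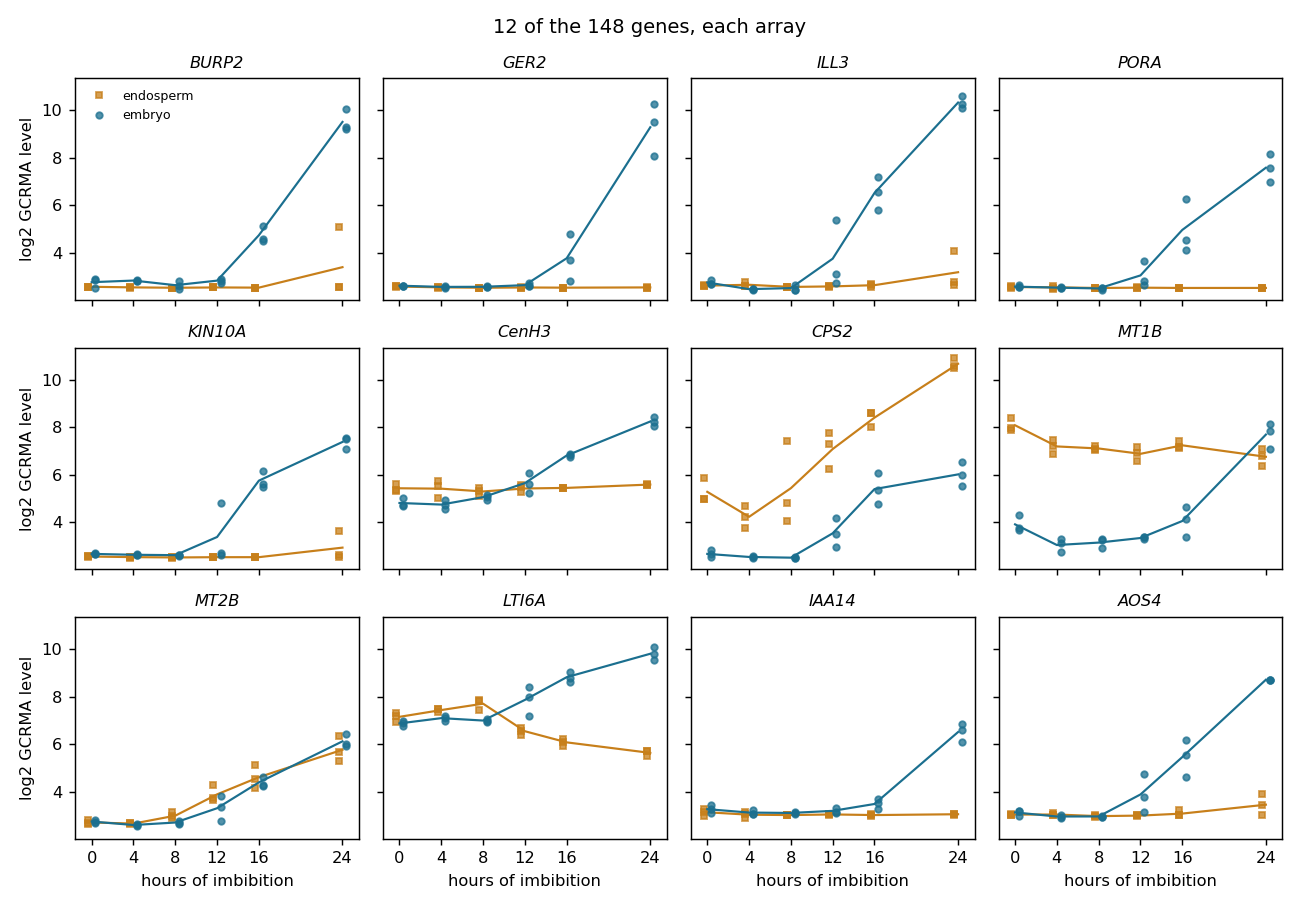
Log2 level of 12 members in every array against hours of imbibition, with endosperm as squares and embryo as circles and lines through the means of 3 arrays. CPS2 is higher in endosperm at every time, MT1B crosses between tissues, MT2B climbs in both, and BURP2 has 1 endosperm array at 5.11 at 24 h.

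The highest scores without a name belonged to LOC4331137 (6.46), LOC4325264 (5.99), LOC4332925 (5.60), LOC4337187 (5.57), LOC4334306 (5.56), LOC4325831 (5.53), LOC4349497 (5.46), LOC4325174 (4.87) and LOC4347027 (4.85). LOC4331137 read 2.94, 2.34 and 2.34 at 12 h, 4.86, 3.44 and 3.03 at 16 h, and 9.25, 9.39 and 8.37 at 24 h in embryo. LOC4349497 read 4.96, 2.29 and 2.28, then 6.94, 6.25 and 6.76, then 8.57, 8.52 and 8.82. LOC4349497 was far along at 16 h, and its 12 h arrays differed by more than 2 units. Neighbouring members with no gene between them formed 4 pairs, namely LOC4325263 with LOC4325264, LOC4325830 with LOC4325831, LOC4332038 with LOC4332039, and GER2 with GER1. The probe sets of LOC4325830 and LOC4325831 come from the same sequence cluster, so these 2 genes may share signal. Across all members, 45 further probe sets in 32 genes were on the array, of which 24 differed by at least 1 between 24 and 12 h and 21 did not. Of those 21, 16 were below 3.5 at 24 h.

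The 16 h arrays, which the rule used only in choosing the probe set, showed how far the step had come. The share of the 12 to 24 h difference present at 16 h had a median of 37.0%, with a range from -0.26% to 75.1%. It was under 25% in 36 members, 25 to 50% in 84, 50 to 75% in 27 and above that in 1, CPS2. The median share was 37.7% without embryo replicate 1, 40.3% without replicate 4 and 31.8% without replicate 5. At 16 h, 65 members (43.9%) were at least 1 above 12 h with all 16 h arrays above all 12 h arrays. Over all genes this held for 226, or 1.26%, and members made up 28.8% of them. The 12 h arrays are shared with the rule, so these counts are no test. The single harvest day that held embryo arrays of 16 h and 12 h pairs replicate 4 at 16 h with replicate 5 at 12 h, the 12 h array with the lowest member median. On that day the median difference was 1.11 over members and -0.015 over all genes.

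Earliest were CPS2 (75.1% at 16 h), LOC4347846 (65.3%), LOC4344583 (64.8%) and LOC4349497 (63.6%), and the 6 kinesins had 44.2% to 59.3%. CKS1 and CenH3 had 55.0% and 44.8%. Latest were LOC4350420 (-0.26%), LOC4344899 (-0.24%), LOC4329172 (-0.24%) and LOC4348119 (0.37%). LOC4344899 read 2.14, 2.15 and 2.14 at 16 h and 8.08, 6.68 and 5.26 at 24 h, so its 24 h arrays spread by more than 2 units while its 16 h arrays were almost equal. LOC4350420 read 2.42, 2.43 and 2.41 at 16 h and 7.005, 6.36 and 5.57 at 24 h. Replicate 1 was the highest 24 h array in LOC4344899 and LOC4350420. BHLH172 (4.97%), PRX74 (5.37%), IAA14 (8.72%), Cht1 (11.3%), GER1 (12.1%), MT1B (16.4%) and GER2 (17.0%) were also late. These shares set differences on a log scale and say nothing of the number of cells that express a gene.

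**Figure D4:**
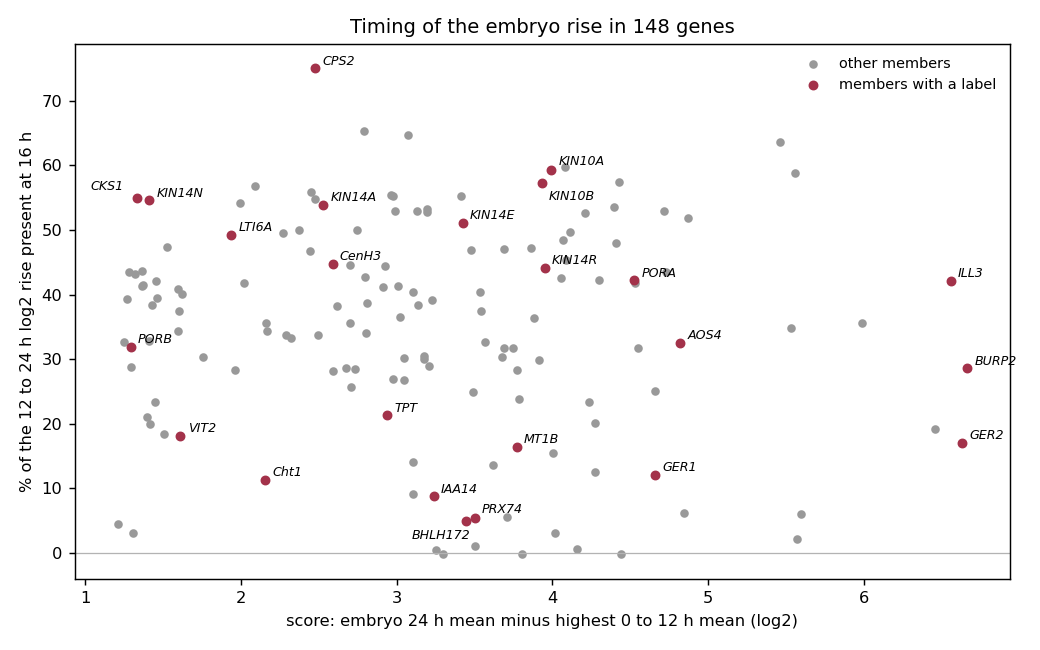
Share of the embryo 12 to 24 h log2 difference present at 16 h (percent, vertical) against the score (log2, horizontal) for the 148 genes, with 24 named members in red and labelled. Kinesins lie between 44.2% and 59.3%, CPS2 is at 75.1%, and GER1, GER2, IAA14, PRX74 and BHLH172 lie at or under 17.0%.

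The rule used the endosperm arrays only in choosing the brightest of a gene's probe sets over all arrays, and 116 members have a single probe set. The endosperm arrays answer whether the same genes also changed there. A call needed an adjusted p below 0.05 in limma (Benjamini-Hochberg over all 57194 probe sets) and a log2 difference of at least 1 in size. Values after ± are standard errors, with n = 3 arrays per group. At 24 h against 0 h, 15 of 148 members (10.1%) rose in endosperm, against 17.2% of all genes, and 4 (2.703%) fell, against 8.57%. At 24 h against 12 h, 16 members (10.8%) rose, against 2.68% of all genes, and 0 fell, against 1.47%. At an unadjusted p below 0.05 in limma, 38 members were higher and 4 lower at 24 h than at 12 h. Of all 57194 probe sets, 9327 passed that limit in either direction, and their directions were not counted. The same share over genes was not counted either, so the split of the members by direction has nothing to be set against. At 12 h against 0 h, 5 members (3.38%) rose, against 15.2%, and 3 (2.03%) fell, against 6.95%, and these 8 calls were 4 without the endosperm 12 h array of replicate 1 and 3 without all arrays numbered 1. The F test over all 6 endosperm times called 25 members (16.9%), against 36.8% of all genes. In 96 members all 6 endosperm means were below 3.5, where a fall can hardly be seen. The part of this in the shares was not tested. The median difference over members was 0.20 at 24 h against 0 h and 0.20 at 24 h against 12 h, with medians over all genes of 0.01 and -0.0043. The embryo axis markers averaged 4.08 to 4.96 in endosperm at 24 h and 3.08 to 3.42 at 0 h, and the part of such transcripts, and of RNA integrity, in these calls was not tested.

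The 24 h against 0 h and 24 h against 12 h calls shared 15 members upward, and LOC4328194 (1.13 ± 0.18 at 24 h against 12 h, adjusted p = 8.9e-05 in limma) was called in the second alone. In all 15 and all 16, endosperm replicates 2 and 3 at 24 h lay above every array of the earlier time. Those arrays also made the calls, so this is description and no separate test. Without the endosperm 24 h array of replicate 1, 12 members rose and 3 fell at 24 h against 0 h, and 12 rose at 24 h against 12 h. Over all 17905 genes, 2956 rose and 1490 fell in the first comparison, and 383 rose and 232 fell in the second. Within each harvest day that held endosperm arrays of both times compared, 2 days for either comparison, every called member differed in the direction of its call. The day pairs are part of the arrays behind the calls, so the agreement is largely set by the selection. With arrays of the compared groups alone, 9 members were called higher at 24 h against 12 h, while 338 of all genes rose and 203 fell. With each array centred on its 75th percentile, 11 members rose and 9 fell at 24 h against 0 h. Of all genes, 2189 rose and 2492 fell there, and the median of all genes was -0.33. At 12 h against 0 h that centring gave 1 member higher and 6 lower, against 1860 and 2037 of all genes, whose median was -0.30.

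CPS2 rose most in endosperm. It read 4.99, 4.99 and 5.87 at 0 h, 7.28, 7.74 and 6.23 at 12 h, 8.60, 8.03 and 8.58 at 16 h, and 10.91, 10.58 and 10.50 at 24 h in replicates 1, 2 and 3, with no overlap between the last 3 times. The difference was 5.38 ± 0.54 at 24 h against 0 h (adjusted p = 6.12e-09 in limma). Diterpene synthase genes that are no members moved in endosperm as well. Of 8 measured, 4 rose at 24 h against 0 h, namely CPS2, CPS4 (6.11), DTS2 (6.16) and DTC1 (5.34). In embryo, CPS2 alone of the 8 was called at 24 h against 12 h. DTS2, for example, had embryo means of 7.09 at 12 h and 6.24 at 24 h.

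LOC4335218 rose by 4.49 ± 0.37 at 24 h against 0 h, with endosperm levels of 7.67, 6.30 and 8.31 at 24 h and 2.85, 3.005 and 2.94 at 0 h (adjusted p = 1.9e-10 in limma). LOC4338201 rose by 3.48 ± 0.29, with 6.88, 6.32 and 6.78 at 24 h and 3.07, 3.10 and 3.36 at 0 h. With 1 gene between them, LOC4335218 is a neighbour of the member LOC4335220, which stood at 3.44, 2.72 and 3.32 in endosperm at 24 h and was not called. The neighbours were thus both members, and 1 of them had an endosperm call. The difference between them was not tested. At 24 h against 12 h the order was CPS2 (3.58), LOC4335218 (3.35), LOC4338201 (3.12) and LOC4333614 (1.99). At 24 h against 0 h, MT2B and LOC4333614 rose by 3.06 and 2.69, and the other 10 members that rose had differences of 1.02 to 2.33. At 12 h against 0 h the members that rose were CPS2 (1.80), MT2B (1.18), LOC4347395 (1.16), LOC4335218 (1.14) and LOC4331847 (1.10).

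The metallothioneins took opposite courses in endosperm. MT2B read 6.33, 5.28 and 5.68 at 24 h and 2.63, 2.69 and 2.81 at 0 h, a rise of 3.06 ± 0.24 (adjusted p = 7.08e-11 in limma). MT1B read 6.39, 7.09 and 6.79 at 24 h and 8.37, 7.90 and 7.97 at 0 h, and fell by 1.32 on the log2 scale (SE 0.26, adjusted p = 2.2e-04 in limma). Without all arrays numbered 1 the MT1B difference was -0.99, short of the size a call needs. Of the 7 metallothionein genes measured, 4 rose and 1 fell in endosperm at 24 h against 0 h. MT-1-4b was no member because its embryo mean at 12 h was more than 1 above that at 0 h, but it had 8.09 in embryo at 24 h and 4.04 at 12 h and stayed near 2.5 in endosperm.

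Besides MT1B, 3 members fell in endosperm at 24 h against 0 h. LTI6A read 5.72, 5.69 and 5.48 at 24 h and 7.18, 7.32 and 6.94 at 0 h, a difference of -1.52 ± 0.19 (adjusted p = 2.9e-07 in limma). LOC4337248 had a difference of -1.28 ± 0.29 and LOC4350822 one of -1.14 ± 0.30. LOC4350822 was not called without the endosperm 24 h array of replicate 1 (-0.98) or without the 0 h array of replicate 1 (-0.999). At 12 h against 0 h the members that fell were VIT2 (-1.43 ± 0.26), MT1B (-1.20) and LOC4337248 (-1.04). VIT2 read 6.97, 7.33 and 7.15 at 12 h and 8.78, 8.67 and 8.29 at 0 h in endosperm, and its 24 h arrays read 7.59, 7.54 and 7.84.

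Of the 28 named members, 4 were called in endosperm at 24 h against 0 h or 12 h, namely CPS2, MT1B, MT2B and LTI6A. At 24 h against 0 h, 17.2% of all genes rose and 8.57% fell. PORA read 2.53, 2.54 and 2.53 at 24 h and 2.53, 2.58 and 2.60 at 0 h in endosperm, GER2 2.54, 2.58 and 2.54 at 24 h and 2.56, 2.60 and 2.62 at 0 h, and BHLH172 2.48 in each array at 24 h and 2.47, 2.52 and 2.49 at 0 h. These genes stayed at low signal. KIN10A read 3.63, 2.54 and 2.64 at 24 h and 2.53, 2.57 and 2.59 at 0 h (difference 0.37 ± 0.33, adjusted p = 0.37 in limma), replicate 1 being the high array. KIN10B read 3.64, 2.77 and 3.72 at 24 h and 2.61, 2.59 and 2.69 at 0 h, so that 2 of its 24 h arrays were well above 0 h, and it was not called (adjusted p = 0.10 in limma). Of the 34 kinesins, 4 rose in endosperm at 24 h against 0 h (KIN14C, KIN7C, K23 and KIN14I), and these are not members. CenH3 held 5.58, 5.59 and 5.61 at 24 h and 5.61, 5.34 and 5.36 at 0 h.

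**Figure D5:**
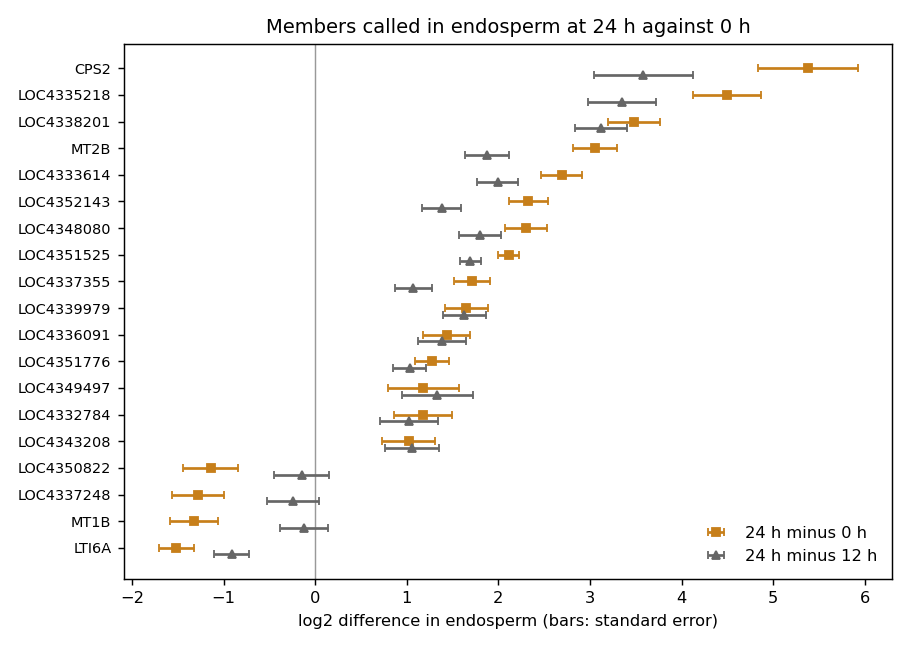
Log2 difference in endosperm for the 19 members called at 24 h against 0 h (squares), with their difference at 24 h against 12 h (triangles), and bars for the standard error of the fit. CPS2 is highest at 5.38, and LTI6A is lowest at -1.52.

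The tissues were compared at 16 h, the time whose levels the rule did not use beyond the choice of probe set. Endosperm was lower than embryo in 115 members (77.7%), against 47.8% of all genes, and higher in 6 (4.05%), against 5.32%. The median difference was -2.07 over members and -0.93 over all genes. Since the members were picked for high embryo levels at 24 h, an embryo level above that of endosperm at 16 h leans on the choice. The lowest in endosperm relative to embryo were LOC4336091 (-5.54 ± 0.26), LOC4349970 (-4.47 ± 0.25), LOC4349497 (-4.30 ± 0.39) and LOC4325263 (-4.09 ± 0.20). LOC4336091 read 3.33, 3.05 and 2.75 in endosperm and 8.69, 8.45 and 8.61 in embryo at 16 h. After quantile normalization over all arrays 85 members were lower and 12 higher, while 2729 genes were lower and 2426 higher. After centring on the 75th percentile 65 members were lower and 22 higher, while 2302 genes were lower and 5793 higher, the median of all genes then being 0.31. The same 65 members were lower under all 3 scalings, and the same 6 were higher.

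Those 6 members were MT1B (3.18 ± 0.26), CPS2 (3.003 ± 0.54), LOC4324634 (2.65 ± 0.21), LOC4350822 (2.47 ± 0.30), LOC4343014 (2.38 ± 0.24) and LOC4341358 (2.03 ± 0.20), with adjusted p from 1.41e-11 to 1.94e-05 in limma. MT1B read 7.13, 7.41 and 7.17 in endosperm and 4.63, 4.15 and 3.39 in embryo at 16 h. LOC4343014 read 4.73, 5.43 and 5.12 in endosperm and 2.50, 2.51 and 3.14 in embryo. The tissues did not overlap for either gene. On the single harvest day that held a 16 h array of each tissue, both replicate 1, all 6 were higher and all 115 were lower in endosperm, where the median over all genes was -0.95. This pair was among the arrays that made the calls, so it is no separate test.

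Of the 28 named members, 20 were lower in endosperm at 16 h, 2 were higher and 6 were not called, against 47.8% of all genes lower and 5.32% higher. The choice of members for high embryo levels bears on these counts as well. The kinesins KIN14N (-3.38 ± 0.23), KIN10A (-3.21 ± 0.33) and KIN10B (-3.17 ± 0.36) were among the lower ones, as were ILL3 (-3.87 ± 0.42), CKS1 (-2.99 ± 0.14), PORB (-2.48 ± 0.16) and PORA (-2.44 ± 0.32). BHLH172 (-0.46), IAA14 (-0.47) and PRX74 (-0.54), whose embryo step came after 16 h, did not reach the size a call needs. MT2B read 5.13, 4.55 and 4.15 in endosperm and 4.26, 4.29 and 4.62 in embryo, a difference of 0.22 ± 0.24, and rcs1 read 6.64, 6.70 and 6.86 in endosperm and 6.89, 6.87 and 6.47 in embryo. Arrays of the 2 tissues overlapped for both genes. By 24 h, 4 members had a higher mean in endosperm than in embryo.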

How the data were processed

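Per the submitters' processing notes, the deposited values are log2 signals that the authors made with GCRMA (version not given in the sources used here), and they were used as deposited. Of the 57194 rice probe sets, 22436 mapped to 1 gene, and a gene was read from the brightest of its probe sets by the mean over all arrays. Names came from the array annotation and a RefSeq gene table (ASM3414082v1), used for names and for which genes neighbour each other. The members and gene lists were chosen with earlier results of these data known. The word lists planned for gene function could not be applied to tables without descriptions, so families were taken by symbol after the members' names were seen. All 28 members with a name are described, with the 12 highest scores, up to 4 largest differences in each direction per comparison, the 4 highest and 4 lowest shares at 16 h, and the genes beside the limit. Sequences and promoter motifs were not analysed here.

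Linear models with a mean per tissue and time were fitted to all 36 arrays in limma 3.58.1 (R 4.3.3). In simulated data with 57194 probe sets, 47 of 50 changes of 1.5 and 50 of 50 changes of 3 were called for endosperm 24 h against 0 h. Alternatives tried were the replicate number or the harvest day as a block, other moderation, a filter at the median level, quantile normalization, 75th percentile centring, compared groups alone, the mean of all probe sets, and leaving out each array. Leaving out all arrays numbered 1 was chosen after seeing the data. Tables and figures used Python 3.11.15, pandas 2.3.3, numpy 2.4.6 and matplotlib 3.10.9.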

Additional observations from a re-analysis of the deposited data

Results flagged for a closer look

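In 18 members (12.2%) every endosperm array at 24 h lay below every endosperm array at 0 h while every embryo array at 24 h lay above every embryo array at 0 h, against 1.99% of all genes. The embryo side follows from the way the genes were chosen, so this share is no result about the members. Of the 18, 4 were also called lower in endosperm, with 24 h minus 0 h differences of -1.52 for LTI6A, -1.32 for MT1B, -1.28 for LOC4337248 and -1.14 for LOC4350822. The embryo differences over the same times were 2.93 for LTI6A, 3.77 for MT1B, 2.86 for LOC4337248 and 3.79 for LOC4350822. VIT2, KIN14N and PORB, also among the 18, had endosperm differences of -0.92, -0.79 and -0.72, short of the size a call needs. The difference between the tissues was not tested. For LOC4350822 the endosperm separation rests on 6.800 in a 24 h array and 6.802 in a 0 h array.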

How the results depend on the processing

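In endosperm at 24 h against 12 h, 9 members were called when the arrays of the compared groups alone were fitted, against 16. Over all genes that fit called 338 higher and 203 lower, against 479 and 264. At 12 h against 0 h, leaving out all arrays numbered 1 left 3 of 8 calls. Leaving out 1 array at a time gave 15 to 23 member calls at 24 h against 0 h, 12 to 16 at 24 h against 12 h, 4 to 9 at 12 h against 0 h, and 113 to 123 for the tissues at 16 h. Over all genes the ranges were 4444 to 4820, 615 to 894, 3794 to 4136 and 9386 to 9589. After quantile normalization 5155 genes were called between the tissues at 16 h, against 9518. The rule picked 99 of the 148 members again after quantile normalization, 131 with the mean of all probe sets, and 101 to 127 without 1 embryo replicate. Over all probe sets, deviations of same-numbered endosperm arrays in the 3 time comparisons had correlations of -0.05 to 0.07, though among the members arrays numbered 1 stood apart, and embryo pairs were not compared. The replicate block gave 15 members higher and 4 lower at 24 h against 0 h, 15 higher at 24 h against 12 h, and 6 higher and 115 lower between the tissues. Over all genes it gave 3081 higher and 1535 lower, 486 and 271, and 953 and 8568 in the same order. With all alternatives, 27 differences of named genes gave 405 values, of which 380 stayed on the same side of the threshold, 25 no longer passed it and 0 reversed. The 25 values came from 9 of the 27 differences. Members below 3.5 limit what the array can show, and the number of arrays limits the precision.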
